A study of Homo sapiens with 2 samples.

Results

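The ATF, BATF, JDP2 and MAF genes encode basic leucine zipper (bZIP) transcription factors related to JUNB. The 10 genes described here are ATF2, ATF3, BATF, BATF2, BATF3, JDP2, MAF, MAFF, MAFG and MAFK, out of 19970 protein-coding genes on chromosomes 1 to 22 and X. Every JUNB peak whose summit lay inside one of them or within 50 kb of its RefSeq span was taken. That gave 22 of the 33491 peaks listed for untreated cells and 12 of the 26590 listed for etoposide-treated cells. Peaks that overlapped a peak of the opposite list by 1 bp or more are called shared.

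JUNB occupancy was mapped by CUT&RUN, in which an antibody guides a nuclease to its target on chromatin and the released fragments are sequenced. The cells were IMR-90 human fibroblasts, either without treatment or treated with etoposide. Etoposide is an inhibitor of topoisomerase II that leaves double-strand breaks in DNA and is widely used to bring fibroblasts into senescence. No dose or time of etoposide is given in the labels, and no allele or transgene is named for either group. There was 1 library per condition, so every difference below compares 2 libraries, has no replicate check and was not tested. A peak list holds no expression values, so the cell label was not checked against marker genes.

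bZIP proteins bind DNA as pairs held together by a leucine zipper. JUN and FOS proteins pair to form AP-1, which reads the site TGANTCA, whereas ATF2 and its relatives, alone or paired with JUN proteins, also read the longer site TGACGTCA, known as the cyclic AMP response element. The BATF proteins, JDP2 and ATF3 pair with JUN proteins, JUNB included, and are known mainly for limiting or redirecting AP-1. The small MAF proteins MAFF, MAFG and MAFK have no activation domain and serve as partners of NRF2 and BACH proteins, while MAF is a large MAF protein that activates genes by itself.

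Of the 10 genes, 9 had an untreated peak within 50 kb and 7 had an etoposide peak. Over all protein-coding genes the shares were 72.0% and 62.6%. The 7 genes with an etoposide peak (ATF3, BATF2, BATF3, JDP2, MAFF, MAFG and MAFK) all had an untreated peak as well, where 58.6% of all genes had both. For ATF2 and BATF only untreated peaks were listed, as for 13.5% of all genes, and none of the 10 had only etoposide peaks, against 4.05%. MAF had none in either library, as did 23.9% of all genes. These counts lie near the background, and the number of peaks per gene did too: the median was 3 untreated and 1 etoposide peaks for the 10 genes, and 2 and 1 for all genes.

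**Figure D1:**
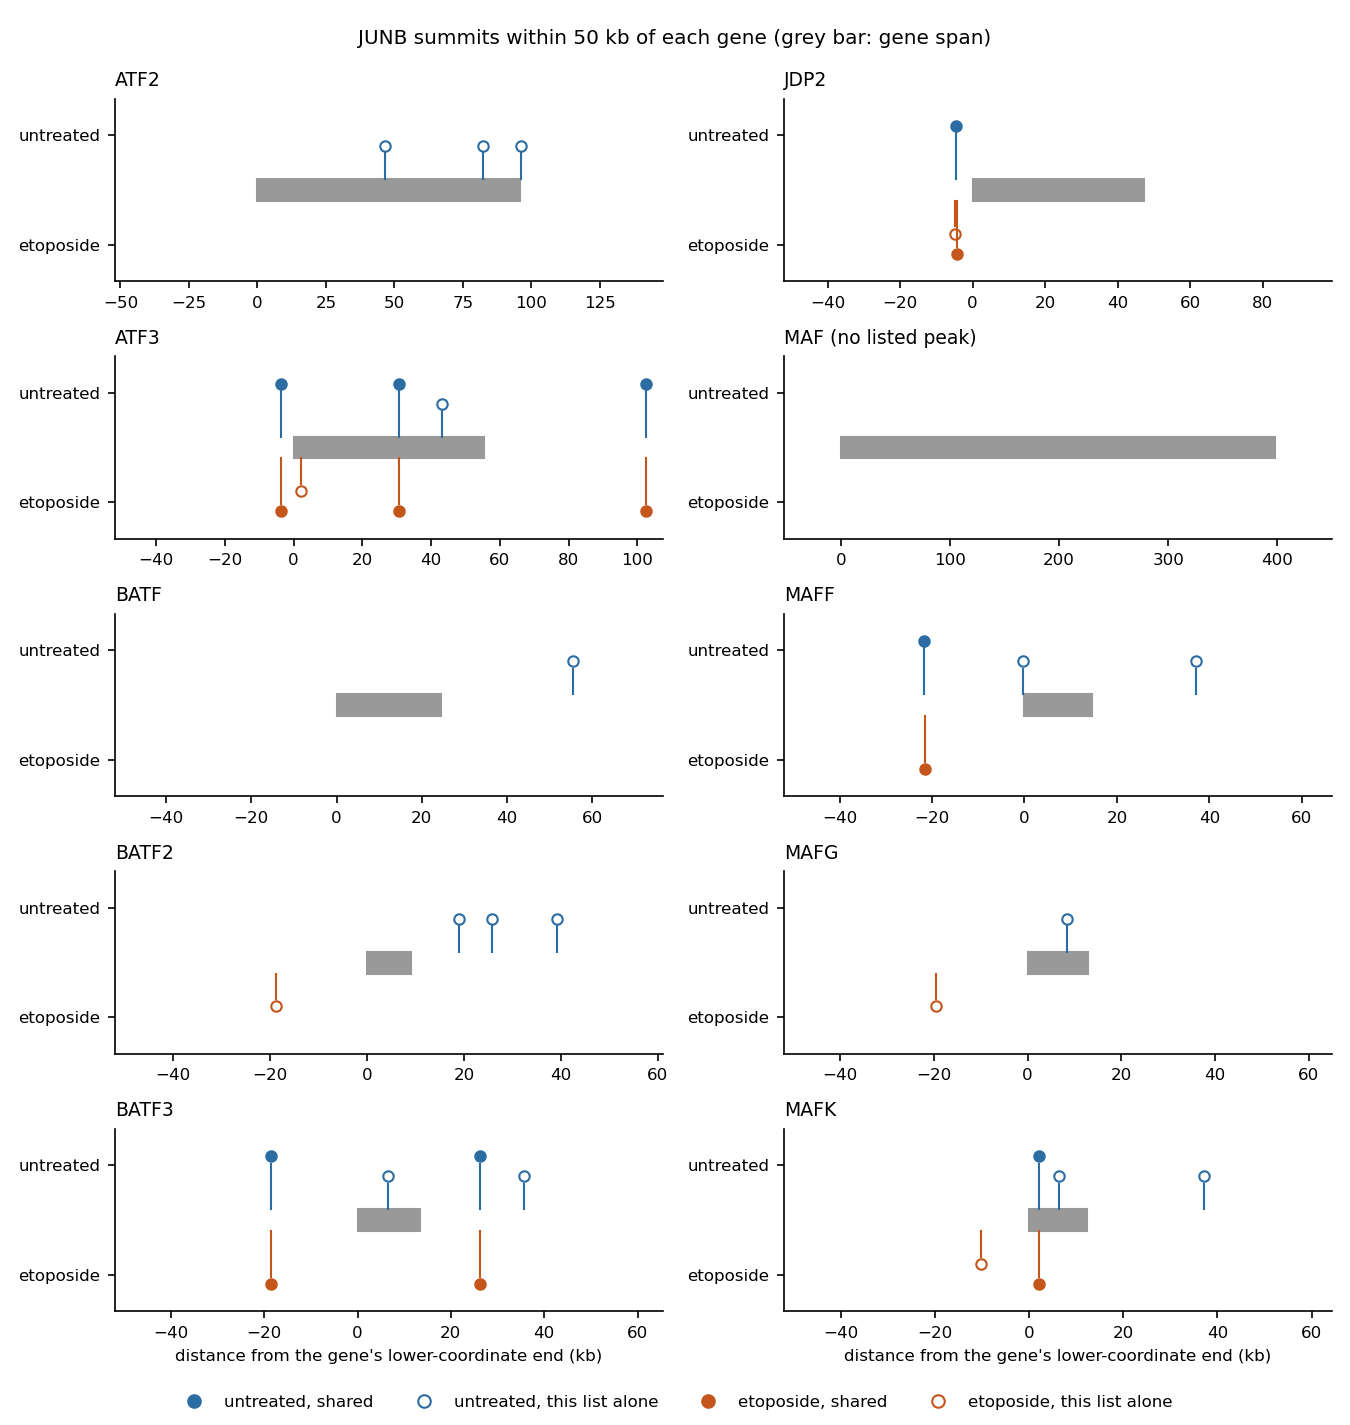
Each panel is 1 gene, with distance from its lower-coordinate end in kb on the x axis, untreated summits above the gene and etoposide summits below. Filled circles are shared peaks and open circles are peaks of 1 list alone. ATF2, BATF, BATF2 and MAFG have open circles only, ATF3, BATF3, JDP2, MAFF and MAFK have filled circles in both libraries, and MAF has none.

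**Figure D2:**
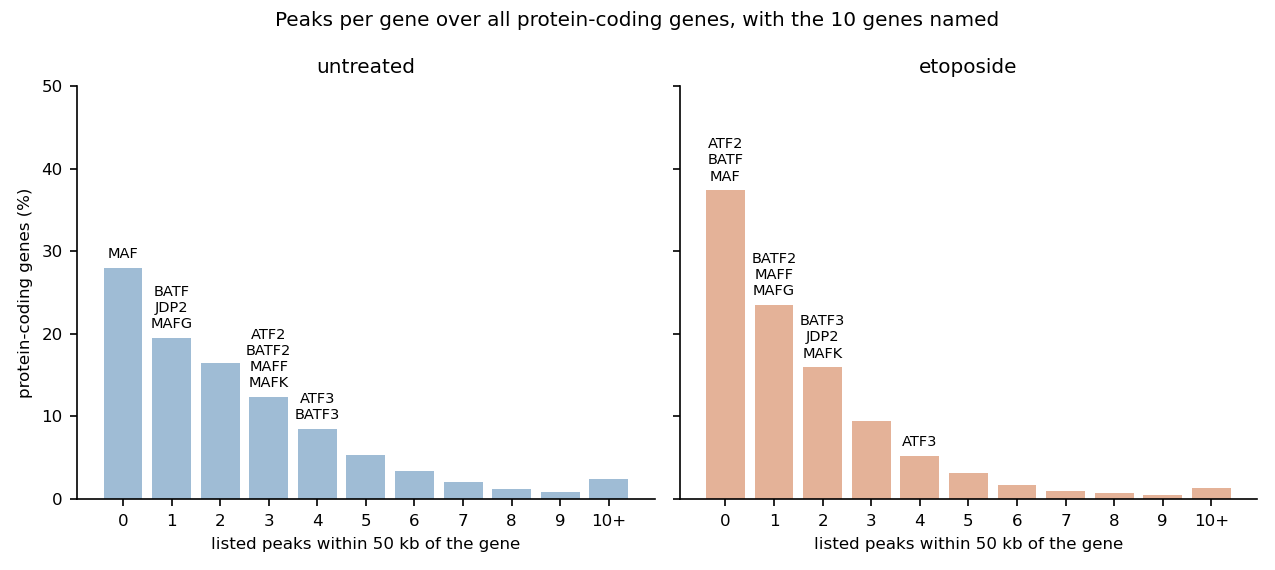
The bars give the share of protein-coding genes (y axis, %) with each number of listed peaks within 50 kb (x axis) in the untreated (left) and etoposide (right) library, and gene names stand on the bar of their own number. All 10 names lie between 0 and 4 peaks in both panels.

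The sequences that could be set against a peak were promoter windows of RefSeq (GRCh38.p14), which run from 250 bases before a gene start to 50 bases after it. The table held 11 windows for 7 of the 10 genes. A listed summit fell in 1 of them, the MAFF window, and it came from the untreated library. Of all RefSeq windows, 3.51% held an untreated and 1.21% an etoposide summit. The sequences shown are the 250 bases before the start of MAFF, where this peak lay, those of MAF, the related gene that had no peak, and those of SNX15, a sorting nexin gene whose start held an untreated summit within 50 kb of BATF2. MAFF is at chr22:38201744-38201993 (plus strand), MAF at chr16:79600738-79600987 (minus strand, printed in the direction of the gene) and SNX15 at chr11:65027189-65027438 (plus strand). Capitals mark the site TGACGTCA.

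MAFF: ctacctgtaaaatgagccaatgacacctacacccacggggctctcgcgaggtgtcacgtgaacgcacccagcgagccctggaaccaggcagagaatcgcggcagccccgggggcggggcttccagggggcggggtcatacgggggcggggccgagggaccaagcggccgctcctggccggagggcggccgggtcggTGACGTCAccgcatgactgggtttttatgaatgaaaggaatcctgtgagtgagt
MAF: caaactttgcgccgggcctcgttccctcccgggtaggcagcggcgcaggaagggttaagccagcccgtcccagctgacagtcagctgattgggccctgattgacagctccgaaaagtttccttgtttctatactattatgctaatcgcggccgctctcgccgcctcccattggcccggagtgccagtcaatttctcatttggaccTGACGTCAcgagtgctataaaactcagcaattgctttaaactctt
SNX15: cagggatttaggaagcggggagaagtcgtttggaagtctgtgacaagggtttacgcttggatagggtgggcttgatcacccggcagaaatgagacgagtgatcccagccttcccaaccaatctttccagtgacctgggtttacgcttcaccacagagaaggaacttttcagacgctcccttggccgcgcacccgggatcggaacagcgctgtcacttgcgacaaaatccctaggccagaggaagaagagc

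The promoters of MAFF and MAF each held 1 TGACGTCA, and the other 9 windows of these genes held none. In MAFF the site begins 54 bases before the start, and in MAF 45 bases before it. The MAFF peak ran from 391 to 62 bases before the start with its summit 228 bases before it, so the site lay just outside the listed peak. Of all RefSeq promoter windows on these chromosomes 1.85% held TGACGTCA, as did 4.80% of those with an untreated and 3.07% of those with an etoposide summit. The AP-1 site TGANTCA was in none of the 11 windows, against 7.68% of all windows, 13.8% of those with an untreated summit and 31.8% of those with an etoposide summit. The one-sided MAF recognition element, an AP-1 core extended at one end as MAF proteins read it, was in none either, against 0.154% of all windows. Both strands were searched, and every one-sided MAF recognition element also contains a TGANTCA. The SNX15 peak ran from 311 to 99 bases before its start, with the summit 198 bases before it, and none of these sites was in the 250 bases shown.

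Peak heights are given below as the number of fragments piled up at the summit, solved from the authors' fold and p, with an exact Poisson 95% interval that covers counting error only. Ranks are by the authors' -log10 q within a list of 32550 untreated or 25739 etoposide peaks on chromosomes 1 to 22 and X. Over these lists the median summit held 15 untreated and 13 etoposide fragments. Local background fell no lower than 0.482 fragments for untreated and 0.377 for etoposide peaks, and the ratio of these minima, 0.782, serves as a rough measure of relative coverage. Peak lists do not give the sequencing depth itself.

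ATF3, a stress-induced factor, lay at chromosome 1, 212565407 to 212620777, and had 4 peaks in each library, 3 of them shared. The strongest lay 3.69 kb upstream, at 212561586 to 212561854 in the untreated list, with 43 fragments (31.1 to 57.9, rank 766). Its etoposide counterpart, at 212561584 to 212561976, had 38 fragments (26.9 to 52.2, rank 305), and the intervals overlap widely. Inside the gene, 18.8 kb from the nearer of its annotated starts, a peak at 212595995 to 212596316 had 40 untreated fragments (28.6 to 54.5, rank 896). The counterpart at 212596028 to 212596281 had 22 (13.8 to 33.3, rank 3216). ATF3 was the member with the most etoposide peaks, and its upstream peak was the highest etoposide pileup near any of the 10 genes.

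The peaks of ATF3 without counterpart were weak. One in the untreated library, inside the gene at 212608424 to 212608625, had 12 fragments (6.20 to 21.0) and ranked 29970. One in the etoposide library, also inside the gene at 212567152 to 212567455 and 2.03 kb from the nearer annotated start, had 8 fragments (3.45 to 15.8) and ranked 25430, near the end of its list. The ATF3 promoter windows held no summit in either list.

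BATF3, which pairs with JUN proteins and is best known from dendritic cells, lies on the same chromosome at 212686417 to 212699840. ATF3 and BATF3 had 1 shared place in common in the stretch between them, at 212667659 to 212668259 in the untreated list, 47.0 kb from ATF3 and 18.6 kb from BATF3. It had 34 untreated fragments (23.5 to 47.5, rank 2411) and 24 etoposide fragments (15.4 to 35.7, rank 2582). This place is counted once in the totals. On the other side of BATF3, 12.9 kb beyond its upper end, a peak at 212712568 to 212712849 had 29 untreated fragments (19.4 to 41.6, rank 1918), and its counterpart at 212712564 to 212712809 had 14 (7.65 to 23.5, rank 5260). BATF3 itself held a single summit, from the untreated list, at 212692871 to 212693157 with 12 fragments (6.20 to 21.0, rank 16410). A second untreated peak without counterpart, 22.3 kb above the gene, had 8 fragments and ranked 31804. BATF3 thus had a shared place on each side, and its only summit inside the gene was an untreated one.

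ATF2, a kinase-activated partner of JUN, lies at chromosome 2, 175072259 to 175168203. It had 3 untreated peaks and no etoposide peak, and all 3 were low. The highest, with 11 fragments (5.49 to 19.7, rank 20860), lay just past the upper end of the gene at 175168367 to 175168697, with its summit 0.358 kb from that boundary. The others were inside the gene, at 175118847 to 175119048 with 8 fragments (3.45 to 15.8, rank 26918) and at 175154409 to 175154645 with 10 (4.80 to 18.4, rank 27384). The closest etoposide summit was 65.2 kb from the gene, part of a shared place whose untreated summit was 65.1 kb away. The promoter table used here gave no strand for ATF2, BATF3 and MAFK, so their peaks are placed by coordinate.

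BATF, the founding member of its group and a partner of JUN proteins in lymphocytes, lies at chromosome 14, 75522469 to 75546992, and had 1 untreated peak and no etoposide peak. That peak, at 75577918 to 75578119, was 31.0 kb downstream of BATF and 0.601 kb from FLVCR2, inside the antisense transcript FLVCR2-AS1. It had 8 fragments (3.45 to 15.8) and ranked 28033. No peak lay inside BATF or within 10 kb of it in either list.

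BATF2, which is known as an interferon-induced member, lies at chromosome 11, 64987945 to 64996971, and had 3 untreated and 1 etoposide peaks, none of them shared. The untreated peaks were all upstream. The strongest, at 65006769 to 65006999 and 9.90 kb away, had 15 fragments (8.40 to 24.7, rank 11118). The others, at 65013715 to 65014031 and 65027128 to 65027340, had 12 fragments each, with summits 0.360 kb from ARL2, a small GTPase gene, and 0.198 kb from SNX15. The etoposide peak lay on the downstream side at 64969049 to 64969400, inside MAJIN, with 9 fragments (4.12 to 17.1, rank 18653). The lists thus differed at every place near BATF2, and each of the 4 pileups was at or below the list median of its library.

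JDP2, a repressor that pairs with JUN proteins, lies at chromosome 14, 75426943 to 75474107. It was the only gene of the 10 with more etoposide than untreated peaks. A shared place 4.47 kb upstream, at 75422384 to 75422851 in the untreated list, had 26 fragments (17.0 to 38.1, rank 3552). Its etoposide counterpart at 75422416 to 75422735 had 20 (12.2 to 30.9, rank 3435). The additional etoposide peak, at 75422064 to 75422260, had 16 fragments (9.15 to 26.0, rank 8080) and ended 124 bp before the untreated peak began. It was the strongest etoposide peak near these genes without a counterpart, and it had one when a counterpart within 500 bp was accepted. The JDP2 peaks of both libraries therefore fell in a single stretch upstream of the gene. They were also the nearest listed summits to BATF beyond 50 kb, at 100 kb in the untreated and 99.9 kb in the etoposide list.

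MAFF, a small MAF gene, lies at chromosome 22, 38201994 to 38216511, and had 3 untreated peaks and 1 etoposide peak. The highest untreated pileup near any of the 10 genes was here, 21.7 kb upstream and inside PLA2G6, a phospholipase gene. The peak at 38179984 to 38180494 had 49 untreated fragments (36.3 to 64.8, rank 601). Its etoposide counterpart at 38179969 to 38180514 had 27 (17.8 to 39.3, rank 1869). The peak over the promoter shown above, at 38201603 to 38201932, had 17 untreated fragments (9.90 to 27.2, rank 13334), and the closest etoposide summit to it was the one inside PLA2G6. Downstream, 22.6 kb from MAFF and inside TMEM184B, an untreated peak at 38238966 to 38239561 had 23 fragments (14.6 to 34.5, rank 6129). This was the strongest untreated peak near the 10 genes that had no etoposide counterpart.

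MAFG, a small MAF gene at chromosome 17, 81918270 to 81931244, had 1 peak in each library, at different places. The untreated one, inside the gene and 0.964 kb from its annotated start, at 81926637 to 81926838, had 9 fragments (4.12 to 17.1, rank 23846). The etoposide one, 19.6 kb downstream and inside ANAPC11, a subunit gene of the anaphase-promoting complex, at 81898572 to 81898760, also had 9 fragments (rank 16489). Both are low pileups with the same raw count, without allowance for coverage.

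MAFK, the remaining small MAF gene, lies at chromosome 7, 1530702 to 1543043, and had summits inside it in both libraries, as did ATF3 alone among the others and 23.9% of all protein-coding genes. The shared peak, at 1532687 to 1532894 in the untreated list, had 22 fragments (13.8 to 33.3, rank 13918), and its counterpart at 1532499 to 1532875 had 13 (6.92 to 22.2, rank 20455). The summits were 6 bp apart, on local backgrounds of 3.01 untreated and 1.70 etoposide fragments, above the list medians of 1.27 and 0.907. A second untreated peak inside the gene, at 1537102 to 1537303, had 20 fragments (12.2 to 30.9, rank 19274) on a background of 3.11 and no counterpart. Outside the gene there was an untreated peak in PSMG3, a proteasome assembly gene, with 14 fragments (7.65 to 23.5), 24.7 kb from MAFK. An etoposide peak 10.1 kb below the gene had 7 fragments (2.81 to 14.4).

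MAF, the large MAF gene at chromosome 16, has a RefSeq span of 398 kb, from 79202622 to 79600737, and no summit of either list lay within 50 kb of it. Of 485 protein-coding genes at least as long, 13.2% had no peak within 50 kb in either list, and the median number for these genes was 7 untreated and 6 etoposide peaks. The nearest summits were 597 kb away in the untreated and 426 kb away in the etoposide list, both on the upstream side. The stretch without a listed summit ran from 78099502 to 80197797 in the untreated list, 2098 kb, and from 77993632 to 80027101 in the etoposide list, 2033 kb. It also takes in WWOX. Of all distances between neighbouring summits on a chromosome, 0.341% in the untreated and 0.486% in the etoposide list were as long, centromeres included, and the medians were 30.6 and 39.9 kb. The lists were taken as they stand. Whether they are complete over this stretch was not checked and read coverage was not used here, so a place without binding, one without usable reads and one with rows missing from the lists cannot be told apart.

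**Figure D3:**
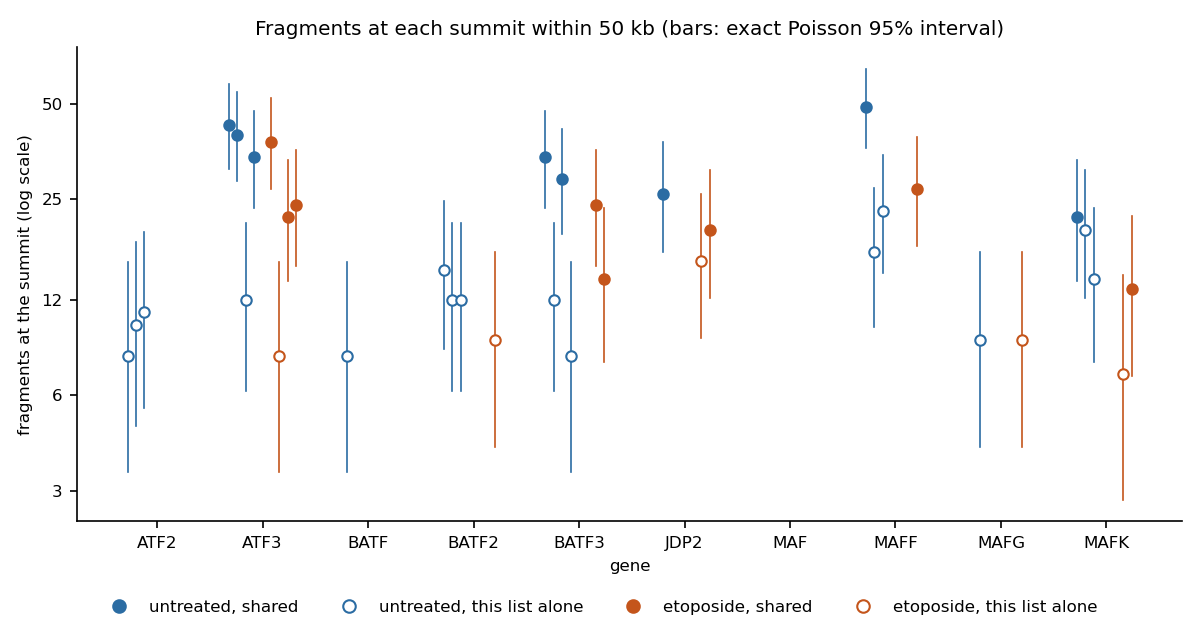
The y axis gives fragments at each summit within 50 kb on a log scale, by gene on the x axis, with exact Poisson 95% intervals as bars. Filled circles are shared peaks and open circles are peaks of 1 list alone, and the shared place between ATF3 and BATF3 is drawn at both genes. The filled circles reach from 22 to 49 fragments in the untreated library, and the open ones from 8 to 23.

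Peaks near these genes were divided by status. Of the 22 untreated peaks 7 were shared, 31.8% (95% Wilson interval 16.4% to 52.7%), where 51.0% of the whole untreated list was. Of the 12 etoposide peaks 7 were shared, 58.3% (32.0% to 80.7%), where 64.8% of the whole etoposide list was. The interval for untreated reaches past the list's value by a small margin, and that for etoposide holds it well inside. The shared places belonged to 5 genes: ATF3, BATF3, JDP2, MAFF and MAFK.

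Shared peaks near these genes had a median of 34 untreated fragments (range 22 to 49), and those of the whole list had a median of 19. The untreated peaks without counterpart had a median of 12 fragments (range 8 to 23), the same median as in the whole list. In the etoposide library the medians were 22 (range 13 to 38) for shared peaks and 9 (range 7 to 16) for those without counterpart, against 14 and 10 over the list. All 7 shared places ranked in the upper part of the untreated list, divided at its middle rank, and 6 of 7 did so in the etoposide list, MAFK being the exception. Over the whole lists 69.1% and 62.2% of shared peaks did. Only 3 of the 15 untreated peaks without counterpart ranked in the upper part, at MAFF (2 peaks) and BATF2, and 1 of 5 etoposide ones, at JDP2, where the whole lists had 30.3% and 27.9%. The ranges of shared peaks and peaks of 1 list alone overlapped in both libraries.

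At the shared places the summits of both lists were 6 to 70 bp apart, with a median of 34 bp. All 7 had fewer fragments in the etoposide than in the untreated library, as did 73.5% of all shared untreated peaks. The ratio of etoposide to untreated fragments had a median of 0.591 over the 7 places (lowest 0.483, highest 0.884). Over all shared untreated peaks the median was 0.776 (quartiles 0.619 and 1). Those peaks were lower, with a median of 19 untreated fragments against 34 at the 7 places, and heights were not matched. Among the 7 places the ratio was lowest above BATF3, 0.483 (exact 95% interval 0.236 to 0.943). The place inside ATF3 followed at 0.550 (0.311 to 0.948) and the one upstream of MAFF at 0.551 (0.331 to 0.899). These 3 intervals lay below 1, and the intervals of all 7 places held 0.782, the ratio of the lists' lowest backgrounds. A loss of fragments beyond the difference in coverage was thus not detectable at any single place.

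**Figure D4:**
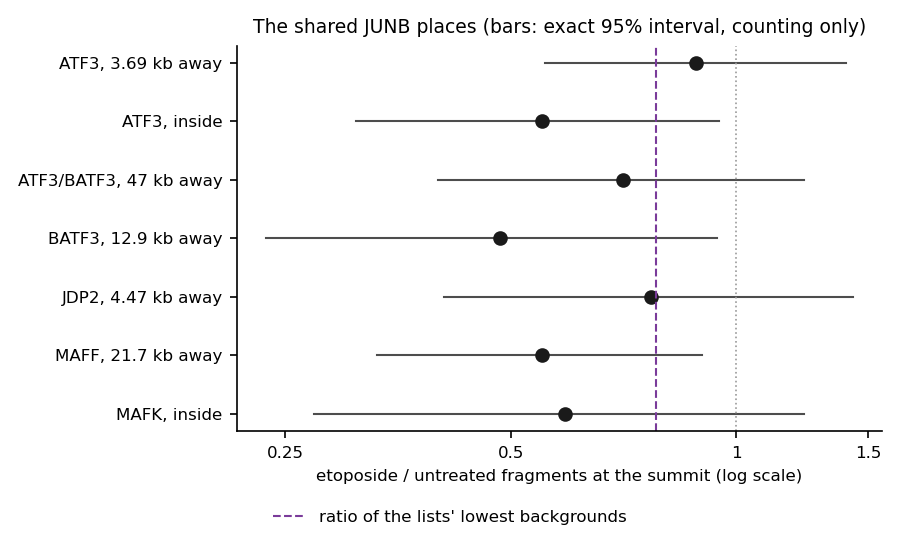
The x axis gives the ratio of etoposide to untreated fragments at each shared place on a log scale, with exact 95% intervals from counting alone, and the y axis names the gene and the distance of the untreated summit from it. The dashed line is 0.782, the ratio of the lists' lowest backgrounds, and the dotted line is 1. All 7 points lie left of 1, and every bar crosses the dashed line.

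The 15 untreated peaks without counterpart were set against gene boundaries. For 6 of them the summit was at most 1 kb from either end of a protein-coding gene, 40.0% (95% Wilson interval 19.8% to 64.3%), where 13.8% of all untreated peaks without counterpart did. Only the ones at ATF2 and MAFF lay at a boundary of a member. The others were at FLVCR2 near BATF, at ARL2 and SNX15 near BATF2, and at PSMG3 near MAFK. None of the 7 shared places had its untreated or its etoposide summit at a boundary, against 5.09% and 5.10% over the lists, and none of the 5 etoposide peaks without counterpart did, against 4.45%. The Wilson limits for these counts of 0 reach 35.4% and 43.4%. The nearest shared summit to any boundary was 1449 bp from it. The list shares in this paragraph take in peaks far from any gene, whereas the peaks described here were all chosen within 50 kb of one. The shares are therefore not alike, and no excess at boundaries can be read from them.

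Whether a place without counterpart could have been listed at the coverage of the other library was worked out from its pileup. The untreated pileups multiplied by 0.782 came to between 6.26 and 18.0 fragments, and at the background scaled in the same way 5 to 11 fragments would have reached the lowest p of the etoposide list. All 15 scaled pileups reached that number, but with the lower limit of the Poisson interval in place of the pileup only 2 did. For the 5 etoposide peaks, all reached the number needed in the untreated list, and 1 did with the lower limit. These pileups are listed partly because their counts came out high, so this reckoning runs toward listing. The closest summit of the other list lay 4.38 to 114 kb away for the untreated peaks and 0.322 to 37.7 kb away for the etoposide peaks.

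Counts were also taken closer to the genes. Within 10 kb, 8 of the 10 genes had an untreated peak and 3 (ATF3, JDP2 and MAFK) an etoposide peak, where 49.6% and 38.9% of all protein-coding genes did. Within 1 kb or inside, the genes with an untreated peak were ATF2, ATF3, BATF3, MAFF, MAFG and MAFK, 6 in all, and those with an etoposide peak were ATF3 and MAFK, against 39.5% and 30.3% of all genes. There were more untreated than etoposide peaks within 50 kb of 6 genes, against 45.6% of all genes, and more etoposide peaks at JDP2 alone, against 12.9%. Counted per length, the windows of the 10 genes held 13.8 untreated peaks per Mb (exact Poisson 95% interval 8.63 to 20.9) and 7.51 etoposide peaks per Mb (3.88 to 13.1). The windows of all protein-coding genes held 13.6 and 10.2 per Mb, inside both intervals. The long window of MAF held no peak and lowers the values of the 10 genes. Without MAF, over 1.1 in place of 1.6 Mb, they were 20.0 untreated (12.5 to 30.3) and 10.9 etoposide peaks per Mb (5.64 to 19.1). These intervals also held the values of all genes.

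A further 37 genes of the bZIP class were counted for comparison: the JUN and FOS genes, other ATF and CREB genes, MAFA and NRL, the NRF (NFE2) and BACH partners of the small MAFs, and the C/EBP and PAR groups with NFIL3, DDIT3 and XBP1. Of these, 30 had an untreated and 25 an etoposide peak within 50 kb, against 72.0% and 62.6% of all genes. Peaks in the untreated library alone were near ATF5, MAFA, NRL, NFE2, DDIT3 and TEF, and CEBPA had an etoposide peak alone. The genes with the most untreated peaks were CREB5 (15 untreated, 10 etoposide), CREB3L2 (11 and 8), ATF6 and BACH2 (10 and 9 each) and CREB1 (9 and 7), while NFIL3 had 8 and 10. A longer gene has a longer window, and these counts were not adjusted for length. The spans were 527 kb for CREB5, 127 for CREB3L2, 198 for ATF6, 370 for BACH2, 76 for CREB1 and 74.5 for NFIL3. JUNB itself (1.83 kb), ATF6B (13 kb), CREB3 (4.33 kb), CEBPD (1.25 kb), CEBPG (8.98 kb) and HLF (60.2 kb) had none in either list. Among the partners of the small MAFs, chosen for mention after their values were seen, NFE2L2, which encodes NRF2, had 3 untreated peaks and 1 etoposide peak, and BACH1, a repressor, had 5 and 3. The median of the 37 genes was 3 untreated and 1 etoposide peaks, the same as for the 10 genes. The means differed, at 3.7 and 2.57 for the 37 genes and 2.3 and 1.3 for the 10.

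The distance of 50 kb had no peak close to it on the inner side except the shared place between ATF3 and BATF3, 47.0 kb from ATF3. Just outside lay a shared place 52.3 kb below ATF3 in the untreated list, with 11 fragments, and 52.5 kb in the etoposide list, with 13. An etoposide peak 53.7 kb below MAFF had 7 fragments and no counterpart.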

How the data were processed

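The data were 2 peak lists in narrowPeak layout, 1 per library. The submitters' processing notes name Bowtie2 and MACS2, and the builds hg38 and mm10, with no settings. Contig names were those of GRCh38. The deposited fold (a ratio) and the deposited -log10 p and -log10 q are the authors' values at the summit, the deposited score is 10 times -log10 q to within 1 unit, and the deposited last column (other) is the summit's offset in bp. Fold, p and q themselves were compared within each list only. Summit positions, and the fragments and background solved from fold and p, were also compared between lists.

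Summits were set against RefSeq GRCh38.p14 gene spans. Fragments k and background b at a summit were solved from the authors' fold, (k + 1)/(b + 1), and Poisson p. A whole k within 0.001 of the deposited -log10 p was found for 100% of peaks, and the solver was tested on simulated data. Python 3.11.15, scipy 1.17.1 and statsmodels 0.14.6 were used. Intervals cover counting error only.

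The rule named, per gene, the strongest peak of each list, those inside or within 1 kb, and those of 1 list alone in the upper part of it by rank, and the remaining peaks were added after their values were seen. Members and lists were chosen with earlier results of these data known. There was no test. Alternatives were the distance, a stricter q, the 10000 strongest peaks, any base in the window and other overlap criteria. One gene of the comparison list is not reported here.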

Additional observations from a re-analysis of the deposited data

How the results depend on the processing

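Within 10 kb there were 13 untreated and 6 etoposide peaks and 3 genes with an etoposide peak. Within 100 kb there were 36 and 22 peaks, and 9 genes had an etoposide peak. ATF2 and BATF then had one, at 65.2 and 99.9 kb, so its absence near them depends on the window. The share of all genes with a peak within 100 kb was not worked out, and a wider window can only raise such counts. Of the untreated peaks within 100 kb 44.4% were shared (16 of 36, Wilson interval 29.5% to 60.4%). Of the etoposide peaks 72.7% were (16 of 22, 51.8% to 86.8%). These intervals held the whole-list shares of 51.0% and 64.8%. Within 10 kb the shares were 30.8% and 66.7%. Among the 10000 strongest peaks of each list there were 7 and 7 peaks, 4 genes with a peak in each library, and a shared share of 85.7% in both. Shares over all genes or all peaks were not worked out at this cut. Shared peaks rank higher in the whole untreated list too, with 69.1% in its upper part against 30.3% of those without counterpart. The cut also makes lists of 32550 and 25739 peaks equally long. Equal counts there thus do not check the excess of untreated peaks, and the cause of that excess was not tested. At a -log10 q of at least 5, with any base in the window and under the other overlap criteria, the counts stayed within 1.5 times and the shares within their intervals. No paired analysis was possible because each condition had 1 library. The low pileups of peaks without counterpart limit what their absence from the other list shows.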
